A study of Mus musculus with 36 samples.

Results

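Tumour CD8+ T cells from *muMt*-/- mice carrying a slow-release pellet of γ-aminobutyric acid (GABA) were compared with those from *muMt*-/- mice carrying a placebo pellet. The 12 samples were taken by their titles, 6 for each treatment, out of 36 in the series. A further 6 CD8+ samples from placebo-treated wild-type (WT) mice entered the same fit, so that all 18 share an estimate of the spread, and their levels are given as a reference. The question was which genes and T cell programmes differ in tumour CD8+ T cells when GABA is supplied to hosts without mature B cells.

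The *muMt*-/- mice were C57BL/6J and the WT mice C57BL/6J or C57BL/6N, and all bore MC38 tumours, a mouse colon adenocarcinoma line injected into the skin, from which cells were taken on day 7. Each sample is RNA of 100 sorted CD45+TCRβ+CD8+ tumour cells, with 1 library for each mouse. Both *muMt*-/- groups carry the same mutation, which stops B cell development, and differ in the pellet, placed under the skin before the tumour cells. In the labels the treatment of the placebo and WT groups is none, and that both were placebo-treated is known from the study alone. The study used mice of both sexes aged 2 to 5 months and does not give age or sex for each sample. The pellet reaches the whole animal and not T cells alone, and no group of WT mice with GABA was analysed here. *Ighm*, the gene disrupted in these mice, was not analysed here, so the genotype was not checked on it.

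CD8+ T cells recognise antigen through the T cell receptor and, once activated, kill with perforin and granzymes and secrete interferon-γ and chemokines. With repeated stimulation in tumours they acquire inhibitory receptors such as PD-1, CTLA-4 and LAG-3. GABA is known as an inhibitory neurotransmitter, and receptors for it are also found on immune cells.

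The number of distinct molecules per sample was 51064 to 77839 with placebo (median 67121.5) and 65356 to 98015 with GABA (median 80283). The groups overlap, and the mean with GABA was 1.21 times that with placebo (two-sided exact permutation test, p = 0.0866, 924 arrangements, smallest possible p = 0.00216). Samples of WT mice were shallower, with 22896 to 76898 molecules. Values below are normalized molecules, which are counts divided by a size factor for each sample. Most tested genes had means below 20 molecules, so that single genes were measured on few molecules.

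The defining markers of CD8+ T cells were present in each of the 12 samples. *Cd8a* was at 16.2 to 52.7 with placebo (median 35.3) and 14.6 to 55.4 with GABA (median 34.3). *Cd3e*, a signalling chain of the T cell receptor complex, was at 8.09 to 23 with placebo (median 14.1) and 8.9 to 19.5 with GABA (median 14.3). *Cd3d*, *Cd3g*, *Cd8b1*, *Lck* and *Cd2* had group means between 12 and 33.6. Within each group replicate 1 had the lowest *Cd8a* and *Cd3e*, and the groups overlap over most of their range.

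Transcripts that mark other cells were counted too, although the sort was for CD45+TCRβ+CD8+ cells, and their source was not tested. The 23 macrophage markers, of which *Cd74* was the most abundant, summed to 114 to 808 molecules with placebo (median 162) and 22.6 to 412 with GABA (median 243). Placebo replicate 1 stood highest, GABA replicates 1 and 3 followed, and GABA replicates 4 and 5 were lowest. The 14 dendritic cell markers ran from 73.6 to 363 with placebo and from 31 to 198 with GABA, led by *H2-Aa*, with placebo replicate 1 again highest. The 16 tumour and stroma markers, mostly *Col3a1*, ran from 0.833 to 86.9 with placebo and from 2.34 to 42.1 with GABA. In that list 5 genes were at 0 throughout, among them *Krt8* and *Krt18*, keratins of epithelial cells. The 7 markers of CD4+ and regulatory T cells, led by *Il2ra* and *Ctla4*, which activated CD8+ cells also express, summed to 20.2 to 50.8 with placebo (median 41.5) and 20.5 to 37.1 with GABA (median 29.3), with the defining genes *Cd4* and *Foxp3* at means of at most 0.26. Of the 10 B cell markers 7 were at 0, and the sum was at most 2.34 in any of these samples. Neutrophil markers (10 genes, 5 at 0) summed to at most 18.2, markers of NK and γδ T cells (7 genes, 2 at 0) to at most 36.4, nuclear RNA (7 genes, mostly *Malat1*) to 112 to 368 and sex-linked genes (5 genes, led by *Ddx3y*) to 5.47 to 15. With all 12 samples, no list differed between the groups in a two-sided exact permutation test (smallest adjusted p = 0.506 over 9 lists, for the CD4+ and regulatory T cell markers). That list alone had an unadjusted exact permutation p of 0.0563. In the same test, unadjusted, it was 0.00433 without placebo replicate 1, its lowest placebo sample, and 0.0455 without GABA replicate 6. Whether the unadjusted p of that list lay under 0.05 thus depended on single samples. Its difference of means stayed negative when any 1 replicate was left out (-14.8 to -8.69 molecules). In bulk samples fewer cells of a type and less RNA per cell cannot be told apart.

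**Figure D1:**
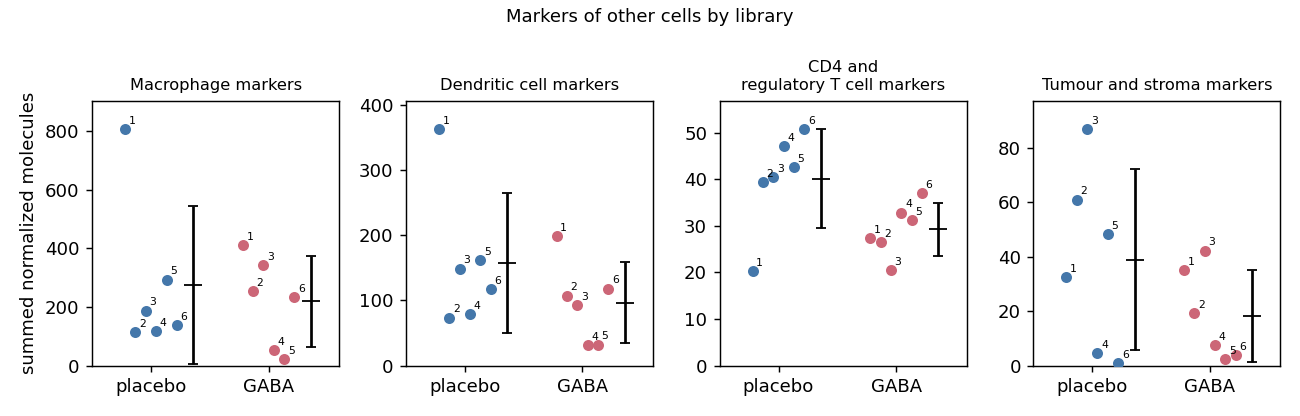
Summed normalized molecules (y axis) of 4 lists of markers of other cells in each sample, by treatment (x axis). Numbers are replicates, and black bars are the mean and SD of 6 samples. Placebo replicate 1 holds 808 molecules of macrophage markers, above the other 11 samples.

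Across genes, 6663 had a mean above 1 molecule over the 18 samples and were tested. None (0 of 6663, 0%) had an adjusted p under 0.05 in edgeR's quasi-likelihood test, and none in DESeq2's Wald test. At an unadjusted p under 0.05, edgeR gave 247 genes (3.71% of those tested), of which 134 were higher with GABA (2.01%) and 113 lower (1.7%), and DESeq2 gave 133. Which direction held more genes depended on the scaling. With library totals over all genes the split was 112 higher and 134 lower, with DESeq2's size factors it was 104 and 145, and no excess in either direction is read from these counts. The groups did not overlap for 11 genes higher with GABA (0.165%) and 6 lower (0.09%). The median log2 fold change over all genes tested was 0.03, and 3563 of them were higher.

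No single gene therefore rose or fell by the adjusted test, and genes are given below by rank of p, with their levels. *Ifng*, the gene of interferon-γ and the most abundant cytokine transcript here, came first among genes higher with GABA. It was at 107 to 362 molecules with placebo (median 202) and 183 to 754 with GABA (median 398), beside a WT mean of 239 ± 95.7 (SD, n = 6). In 4 of the 6 GABA samples it lay above every placebo sample, GABA replicate 1 stood far above the rest, and GABA replicates 3 and 6 lay within the placebo range. The log2 fold change was 1.02 (standard error 0.27, edgeR adjusted p = 0.999, *Ifng* on chromosome 10 from 118441046 to 118445894, GRCm38). Over the alternatives the adjusted p of *Ifng* was 4.03e-05 without the filter on low means, 0.032 with the macrophage marker level as a covariate and 0.225 to 1 in the others, and the log2 fold change was 0.76 without GABA replicate 1.

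*Ccl5*, a chemokine that draws T cells and is made by effector and memory CD8+ cells, was at 7.08 to 76.6 with placebo (median 44.2) and 26.7 to 152 with GABA (median 94.3). In 5 of the 6 GABA samples *Ccl5* lay above the highest placebo sample. The exception was GABA replicate 1, the sample with most *Ifng*, and the lowest placebo value was that of replicate 1. The log2 fold change was 1.21 (standard error 0.36, edgeR adjusted p = 0.999), and the placebo mean of 43.8 ± 30.5 lay below the WT mean of 82.8 ± 28.4 (SD, n = 6 each). Over the alternatives that adjusted p was 4.03e-05 without the filter on low means, 0.0225 with the replicate number as a block, and above 0.05 in the others, up to 1. *Bcl2*, which protects lymphocytes from apoptosis, was at 2.97 to 8.33 with placebo (median 5.08) and 6.4 to 11.8 with GABA (median 10.4). Its lowest GABA values, in replicates 1 and 2, were within the placebo range, and the WT mean was 9.59 ± 2.15 (SD, n = 6).

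Among the other genes ranked high, *Rpl14* and *Rpl35a* encode proteins of the large ribosomal subunit. *Rpl14* was at 45 to 57.6 with placebo (median 52.7) and 50.7 to 141 with GABA (median 68.2), and *Rpl35a* at 97.3 to 117 (median 102) and 105 to 252 (median 126). For both, the top value was that of GABA replicate 1, far from the other GABA samples. *Nop58* and *Nop10*, which belong to the small nucleolar particles that modify ribosomal RNA, had means of 9.49 and 6.45 with placebo and 16.1 and 12.3 with GABA. *Rbm8a*, a part of the exon junction complex, went with means of 6.04 and 10.6, and *Pitpna*, a lipid transfer protein, with 7.58 and 14.3. Their log2 fold changes lay between 0.52 and 0.97.

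The gene nearest the threshold was *Gm6654*, annotated as a transcribed pseudogene on chromosome 6 from 146647177 to 146647802. It was at 102 to 261 molecules with placebo (median 175) and 69.4 to 108 with GABA (median 82). In 5 of the 6 GABA samples it lay below every placebo sample, and GABA replicate 2 and placebo replicate 6 overlapped. The log2 fold change was -1.04 (standard error 0.21, edgeR adjusted p = 0.119), and the WT mean was 211 ± 97 (SD, n = 6), near that of the placebo group. In edgeR *Gm6654* had an adjusted p of 0.0196 without placebo replicate 6, 0.000209 without the filter on low means, 0.00394 with the replicate number as a block, and 0.0481 and 0.00579 with log2 total molecules and the macrophage marker level as a covariate. In the other alternatives it ran from 0.0611 to 0.732. *Rps26*, a protein of the small ribosomal subunit, was also lower, at 182 to 341 with placebo (median 274) and 166 to 207 with GABA (median 187), a log2 fold change of -0.46. Where a pseudogene has near-identical copies elsewhere, reads can be assigned to either. Whether this holds for *Gm6654* was not tested, and its level is taken as uncertain.

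*Copb2*, a coat protein of vesicles moving between Golgi and endoplasmic reticulum, was at 4.91 to 12.3 with placebo (median 7.56) and 1.86 to 4.73 with GABA (median 3.14). Of the ranked genes given here it alone had groups that did not overlap, at a log2 fold change of -1.23 (standard error 0.35, edgeR adjusted p = 0.999). The non-coding RNA *BC018473* was at 11.2 to 26.3 with placebo (median 14.5) and 3.12 to 22.9 with GABA (median 4.14). In 5 of the 6 GABA samples *BC018473* lay below the lowest placebo sample, while GABA replicate 2 lay above 5 of the 6 placebo samples. Its log2 fold change was -1.15 (edgeR adjusted p = 0.999), and without GABA replicate 2 it was -1.85 (edgeR adjusted p = 0.0315). The WT mean of *BC018473* was 6.24 ± 3.22 (SD, n = 6), near the GABA samples other than replicate 2. In tumour macrophages, scaled apart, its mean was 59.8 with placebo, 11 with GABA and 108 in WT mice. Placebo replicate 1, with most macrophage markers, was also the highest in *BC018473*, and the part of such cells was not tested.

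Among the lower genes, *Ccdc36*, *Kif3a* and *Timm22* varied between samples much as the tumour and stroma markers did. *Ccdc36* (listed in RefSeq as *Iho1*) was at 2.5 to 195 with placebo (median 66) and 1.24 to 52.1 with GABA (median 15.1). *Kif3a*, a kinesin motor subunit, had nearly the same level as *Ccdc36* in each sample although the annotation places the genes on chromosomes 11 and 9, so their counts may share reads and are taken as uncertain. Both were highest in placebo replicate 3, low in placebo replicates 4 and 6 and in GABA replicates 4, 5 and 6, which are also the samples with the lowest sums of tumour and stroma markers. *Timm22*, an importer of the inner mitochondrial membrane, was also highest in placebo replicate 3 and lowest in those 5 samples, at 1.67 to 27.4 with placebo (median 12.7) and 0.781 to 8.23 with GABA (median 3.97). Without the filter on low means the edgeR adjusted p was 3.36e-11 for *Ccdc36*, 3.66e-11 for *Kif3a* and 0.0239 for *Timm22*. With log2 total molecules as a covariate it was 0.0286, 0.0286 and 0.0495, and with the macrophage marker level as a covariate 0.032 for the first 2. In the other fits it was at least 0.35 for each of the 3 and up to 1. The part of those cells in these genes was not tested. In tumour macrophages, whose values were scaled apart from those of the T cells, *Ccdc36* had a mean of 156 with placebo and 322 with GABA, the other direction, and the difference between the cell types was not tested. *Trps1*, a zinc-finger repressor, was at 5.83 to 20.2 with placebo (median 7.86) and 0.788 to 9.53 with GABA (median 3.07), and its top values were those of replicate 1 in each group. Those samples also held the most macrophage markers of their group, and the part of such cells in *Trps1* was not tested.

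**Figure D2:**
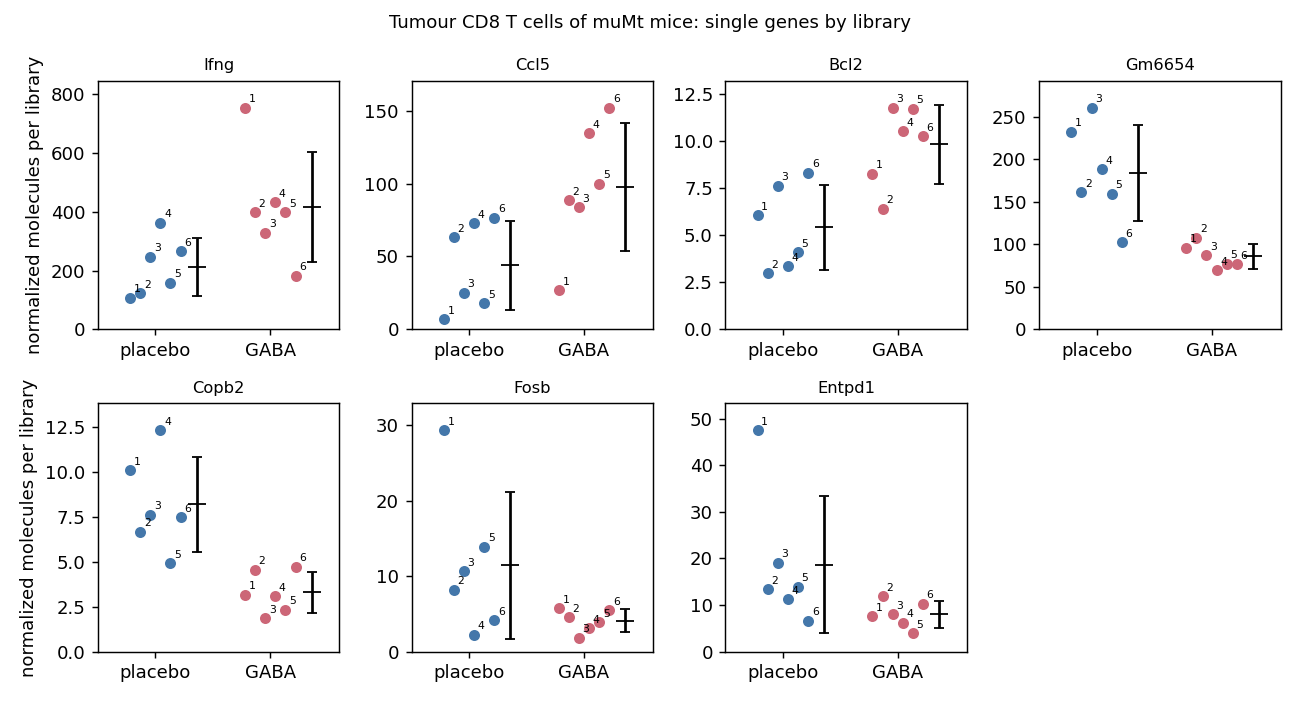
Normalized molecules (y axis) of 7 genes in each sample of tumour CD8+ T cells, by treatment (x axis). Numbers are replicates, and black bars are the mean and SD of 6 samples. Of these 7 genes, only *Copb2* has groups that do not overlap.

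Genes were then read by programme, and for each list the counts stand beside those over all 6663 genes, of which 53.5% were higher with GABA. At an unadjusted p under 0.05 in edgeR, 2.01% of all genes were higher and 1.7% lower. Genes count as higher or lower by their log2 fold change, and the medians of single genes can run the other way. The median of each list is followed by its range over the 23 alternatives, 12 of which leave out 1 sample. Over all genes that range was -0.03 to 0.06. Against the median of all genes in the same fit, naive and memory, ribosomal, OXPHOS, heat shock and chemokine receptor genes lay above it in each of the 23, the smallest differences being 0.03, 0.13, 0.04, 0.06 and 0.00. Inhibitory receptor, TGF-β, NF-κB, immediate early and IL-2 genes lay below it in each, the smallest differences being -0.31, -0.14, -0.09, -0.05 and -0.04. Each other programme lay on both sides. Of 23 tested cytokines and chemokines, 13 were higher and 10 lower (median log2 fold change 0.10, -0.02 to 0.26). An unadjusted p under 0.05 was reached by 3 higher and 2 lower ones. *Ifng*, *Ccl5* and *Csf2* were the higher ones. *Csf2*, the gene of the growth factor GM-CSF, was at 2.23 to 12.2 with placebo (median 6.69) and 0 to 48.9 with GABA (median 7.6), and its higher mean rested on GABA replicates 1 and 5. *Cxcl10*, a chemokine induced by interferon-γ, was lower, at medians of 14.8 and 3.72 and up to 25.4 with placebo and 12.1 with GABA, and *Tgfb1* was the other lower one. *Cxcl10* was highest in placebo replicates 1, 3 and 5 and in GABA replicate 1. Those samples held the most macrophage markers of their group, and the part of such cells was not tested. *Ccl3* (medians 115 and 142), *Ccl4* (171 and 174), *Il2* (5.63 and 2.96) and *Tnf* (1.07 and 2.61) overlapped between the groups. By log2 fold change *Il2* counted as higher (0.46) and *Tnf* (-0.05) and *Ccl4* (-0.10) as lower, against the direction of their medians. The summed list was at 384 to 1130 molecules with placebo and 689 to 1321 with GABA.

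Of 27 cytotoxic effector genes, 12 were higher and 15 lower (median -0.03, -0.17 to 0.04). *Gzmb*, the most abundant granzyme, was at 87 to 192 with placebo (median 136) and 109 to 214 with GABA (median 178), a log2 fold change of 0.32 (95% confidence interval -0.11 to 0.76). *Gzma* (medians 12.7 and 29.2), *Prf1*, the gene of perforin (2.26 and 1.88), and *Fasl* (8.28 and 6.92) overlapped widely. *Gzmk* stayed at or below 1.86 molecules in each of the 12 samples and was not tested. The member with the smallest p was *Serpinb9b*, a serine protease inhibitor, at 0 to 12.3 with placebo (median 4.95) and 0 to 3.9 with GABA (median 1.42), and it alone had an unadjusted p under 0.05 in edgeR.

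Of 22 inhibitory receptors and exhaustion regulators in the file 15 were tested, of which 14 were lower with GABA and 1, *Ikzf3*, higher, at a median log2 fold change of -0.37 against 0.03 over all genes. In edgeR, *Entpd1* and *Ctla4* alone had an unadjusted p under 0.05. *Entpd1*, the gene of the ectoenzyme CD39, was at 6.66 to 47.5 with placebo (median 13.6) and 3.9 to 11.9 with GABA (median 7.84). Its highest value, 47.5, was that of placebo replicate 1, which was also the highest in the summed macrophage and dendritic cell markers, and the part of such cells was not tested. *Ctla4* was at 1.01 to 25.8 with placebo (median 16.2) and 1.86 to 14.8 with GABA (median 9.68), and here placebo replicate 1 was the lowest sample. *Pdcd1*, the gene of PD-1, was at 5.06 to 17.9 with placebo (median 13.9) and 5.08 to 15 with GABA (median 8.95). *Havcr2*, the gene of TIM-3, had medians of 8.86 and 6.77, *Lag3* of 2.77 and 0.394, and *Rgs16*, the most abundant of the list, of 23.1 and 18.6. *Tigit* and *Tox* were too low to be tested.

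Summed over the 15 genes, the level was 107 to 157 with placebo (median 131), 55.9 to 125 with GABA (median 88.6) and 86.6 to 153 in WT mice (median 94.2). GABA replicates 1, 2 and 3 lay far below each placebo sample, and GABA replicates 4, 5 and 6 within the placebo range. Those 3 low samples were the lowest of their group in CD4+ and regulatory T cell markers (20.5 to 27.3, against 31.2 to 37.1), which also hold *Ctla4*. They were also the highest of their group in macrophage markers (253 to 412, against 22.6 to 233) and in tumour and stroma markers (19.2 to 42.1, against 2.34 to 7.43), and the part of such cells was not tested. Leaving out each sample in turn, the median ran from -0.66 to -0.28, the ends being those without GABA replicate 4 and without GABA replicate 2, and at most 3 of 15 genes were higher (without placebo replicate 6). With the macrophage marker level as a covariate the median was -0.56, and without the filter on low means 4 of 21 genes were higher. The same genes include receptors that other leukocytes carry, and their part in these levels was not tested.

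Naive and memory genes were higher in 16 of 25 (median 0.23, 0.06 to 0.34). *Bcl2*, higher, and *Ly6c1*, lower, had an unadjusted p under 0.05. The median was smallest, 0.06, without GABA replicate 4. *Ly6c1* was at 2.24 to 7.43 with placebo and 0 to 2.48 with GABA, while its close paralogue *Ly6c2*, the most abundant of the list, was at 31.3 to 64.9 and 29.9 to 84.3, and reads of such paralogues can be split in error. *Tcf7*, a transcription factor of stem-like T cells (medians 10.6 and 10), *Il7r* (12 and 15.6) and *Ccr7* (13.5 and 13.5) overlapped between groups. Of 24 effector transcription factors 16 were higher (median 0.12, -0.01 to 0.17), led by *Hopx*, at 6.86 to 13.5 with placebo and 9.92 to 22.1 with GABA, but with filterByExpr, which tested 11 of them, 5 were (median -0.01, with 47.6% of all genes higher). *Tbx21* (medians 1.81 and 2.78), *Eomes* (2.34 and 2.52), *Prdm1* (1.94 and 3.69) and the abundant *Id2* (37.5 and 34.9) overlapped.

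Of 26 genes of the T cell receptor complex and proximal signalling 11 were higher (median -0.02, -0.13 to 0.11), and 0 had an unadjusted p under 0.05 in either direction in edgeR. The number higher in this list was 5 of 26 without GABA replicate 5 and 18 of 26 without placebo replicate 6. *Ptprc*, the gene of the phosphatase CD45, led that list with medians of 68.1 and 53.8. Of 30 calcium and NFAT genes 13 were higher (median -0.04, -0.13 to 0.04), and of 15 costimulatory receptors 6 were (median -0.02, -0.21 to 0.13), with *Tnfrsf9*, the gene of 4-1BB, at 25.7 and 35.1. Of the costimulatory receptors 3 of 15 were higher without GABA replicate 4 and 9 of 15 without GABA replicate 6. Of 30 immediate early and activation genes 20 were lower and 10 higher (median -0.19, -0.29 to -0.02), and an unadjusted p under 0.05 was reached by 3 lower genes and 1 higher. *Fosb*, an AP-1 subunit, was at 2.24 to 29.3 with placebo (median 9.42) and 1.86 to 5.72 with GABA (median 4.24). Placebo replicates 1, 5 and 3 were highest, in the order of their macrophage markers. GABA replicate 3, 1 of the GABA samples high in those markers, had the least *Fosb*, and the part of such cells was not tested. *Nr4a1*, induced by receptor signalling, had medians of 17.5 and 11.6, *Cd69* of 11.4 and 12.2, and *Btg1*, the most abundant, of 84 and 90.1. *Zfp36l2*, an RNA-binding protein that promotes decay, was the higher one, at 16.4 to 37.4 with placebo and 26.1 to 40.6 with GABA. The median nearest 0 was that without placebo replicate 1, where 13 of 30 genes of this list were higher.

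Transcripts of genes of GABA itself were nearly absent. Of 38 genes for its receptors, synthesis and transport 6 were tested, and they serve other functions too. Of these, 3 were higher and 3 lower (median 0.03, -0.29 to 0.13), and 1 of the lower ones had an unadjusted p under 0.05 in edgeR. *Gabarap*, which takes part in autophagy, had medians of 18.3 and 16.4. *Gabbr1*, a subunit of the metabotropic receptor, had a mean of 0.26 with placebo and 0.489 with GABA, and 24 of the 38 had 0 molecules in all 12 samples.

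Of 35 interferon-γ response genes 19 were higher and 16 lower (median 0.01, -0.24 to 0.11), and in edgeR *Iigp1* and *Cxcl10*, both lower, had an unadjusted p under 0.05. The part of macrophages in the level of *Cxcl10* was not tested. *Iigp1*, an interferon-induced GTPase, was at 3.36 to 21.5 with placebo (median 14.5) and 1.86 to 11.9 with GABA (median 5.49), and *B2m*, the light chain of MHC class I, at 269 to 315 and 265 to 409. The median of this list lay near the 0.03 of all tested genes. With filterByExpr, which tested 22 of them, 7 were higher (median -0.24, with 47.6% of all genes higher). Of 32 type I interferon-stimulated genes 15 were higher (median -0.06, -0.16 to 0.10), with *Samd9l* higher at medians of 1.51 and 3.83 and *Trim30a* most abundant at 19 and 10.8. Of 20 genes of IL-2 and common γ chain signalling 7 were higher (median -0.13, -0.26 to -0.02), with *Il2rg* at 19.9 and 20.3 and *Il2ra* at 18.9 and 17.3. Of 22 NF-κB subunits and inhibitors 7 were higher (median -0.26, -0.36 to -0.09), with *Rel* lower at medians of 3.52 and 1.08 and *Nfkbia* at 33.8 and 26.3. Without placebo replicate 1 the medians were -0.02 for the IL-2 and -0.09 for the NF-κB list, and the latter was also -0.09 in the 10 genes with a mean above 5. Of 13 genes of TGF-β signalling 2 were higher and 11 lower (median -0.29, -0.44 to -0.11). The median was -0.11 without GABA replicate 4 and -0.17 without GABA replicate 5. Placebo replicate 1, the highest in macrophage markers, had the highest sum of the list (109), and without it 4 of 12 genes were higher, at a median of -0.36. *Tgfb1* was at 5.2 to 13.1 with placebo (median 6.97) and 2.48 to 7.03 with GABA (median 3.8). *Smad3*, a mediator of the pathway, was at medians of 0.79 and 2.12. *Furin*, a protease that matures the ligand, had medians of 11.1 and 12.1 but counted as lower by its log2 fold change of -0.28. The 32 TNF targets that the study picked on these samples, which are no independent evidence of a direction, had 31 tested, of which 3 were higher (median -0.30, -0.55 to 0.12), but 20 of 30 without placebo replicate 1, and 1 to 12 of 31 without any other, the most being without GABA replicate 5. With the macrophage marker level as a covariate 11 of 31 were higher (median -0.09). Their sum was highest in replicate 1 of each group (1219 with placebo and 836 with GABA), as was that of the macrophage markers, whose part in these levels was not tested.

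Of 79 cytosolic ribosomal protein genes 75 were higher and 4 lower (median 0.20, 0.13 to 0.25). Of these, 17 higher genes and *Rps26*, lower, had an unadjusted p under 0.05 in edgeR (2.01% higher and 1.7% lower over all genes). The count of 17 rested on single samples, and was 7 without GABA replicate 4 or placebo replicate 3, 8 without placebo replicate 1 or GABA replicate 6, 9 without placebo replicate 4, 10 and 11 without replicate 5 of GABA and placebo, and 28 without GABA replicate 1. Over all genes that count was 109 of 6608 without GABA replicate 4 and 149 of 6581 without GABA replicate 1. Without GABA replicate 4, where 52.1% of all genes were higher, 63 of 79 ribosomal protein genes were. Their sum was 8485 to 9889 molecules with placebo and 8461 to 11919 with GABA, and GABA replicates 4, 5 and 6 were the highest of the 12 samples while GABA replicate 1 was the lowest. Those 3 samples were also among the lowest in tumour and stroma markers, and the highest WT sample reached 11580. *Rpsa*, the most abundant member, was at 241 to 307 with placebo and 184 to 280 with GABA. Ribosomal protein genes have many near-identical pseudogene copies to which reads can be assigned, so that their levels are uncertain to that extent.

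Of 76 OXPHOS subunits, the proteins of the respiratory chain, 58 were higher (median 0.16, 0.06 to 0.21), and 4 of the higher ones had an unadjusted p under 0.05 in edgeR. *Cox5a*, a subunit of cytochrome c oxidase, was at 12.6 to 18.3 with placebo (median 13.6) and 15 to 26.5 with GABA (median 22), with only GABA replicate 6 within the placebo range, and *Atp5b*, the most abundant, had medians of 41 and 38.7. Without placebo replicate 1 or without GABA replicate 4 it was 45 of 76 (53% and 52.1% over all genes). With log2 total molecules as a covariate it was 44 of 76, where 47.2% of all genes were higher. Glycolysis genes were divided (12 of 23 higher, median 0.02, -0.11 to 0.09), with *Gapdh* at medians of 92.9 and 113. Proteasome subunits were higher in 21 of 31 (median 0.09, -0.04 to 0.20), but in 15 of 31 without GABA replicate 1 or without placebo replicate 4 (49.6% and 48.6% over all genes), with *Psmb1* at 18.1 and 19.4. Of 23 heat shock chaperones 18 were higher (median 0.17, 0.05 to 0.20), among them *Cct6a* at medians of 12.1 and 15.3, while *Dnajb1* was lower at 5.16 and 2.17 and *Hspa8*, the most abundant, was at 154 and 148. The heat shock median was smallest without GABA replicate 1, where 14 of 23 were higher (49.6% over all genes). Cholesterol genes were higher in 7 of 17 (median -0.07, -0.38 to 0.05), with *Scd2* at 12 and 9.97.

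The direction of proliferation genes turned when single samples were left out. Of 40 DNA replication genes 23 were higher (median 0.04, -0.16 to 0.16) and of 38 mitosis genes 17 (median -0.04, -0.36 to 0.16), with 0 at an unadjusted p under 0.05 in edgeR in either list. Without GABA replicate 1 it was 14 of 40 and 14 of 37 (49.6% over all genes), and with log2 total molecules as a covariate, where 47.2% of all genes were higher, 15 of 40 (median -0.12) and 10 of 38 (median -0.24, 2 lower at an unadjusted p under 0.05 in edgeR). *Pcna*, the replication clamp, had medians of 17.1 and 14.9, *Tuba1b* of 44.7 and 40.3, and *Mki67*, a marker of cycling cells, was at 2.24 to 11.4 with placebo (median 10.1) and 4.57 to 8.26 with GABA (median 5.58). Of 24 genes of the BCL2 family and death receptors 13 were higher (median 0.00, -0.11 to 0.06), with *Bcl2* the only one at an unadjusted p under 0.05 and *Mcl1* most abundant at medians of 21.8 and 19.5. Chemokine receptors and adhesion genes were higher in 14 of 19 (median 0.13, 0.03 to 0.18), but in 11 of 19 with the macrophage marker level as a covariate, where their median of 0.03 was that of all genes, and likewise in 11 of 19 without replicate 3 or 4 of placebo or 5 or 6 of GABA (medians 0.04 to 0.07). In edgeR 0 of them had an unadjusted p under 0.05, and *Cd44* was at medians of 35.6 and 27.4.

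**Figure D3:**
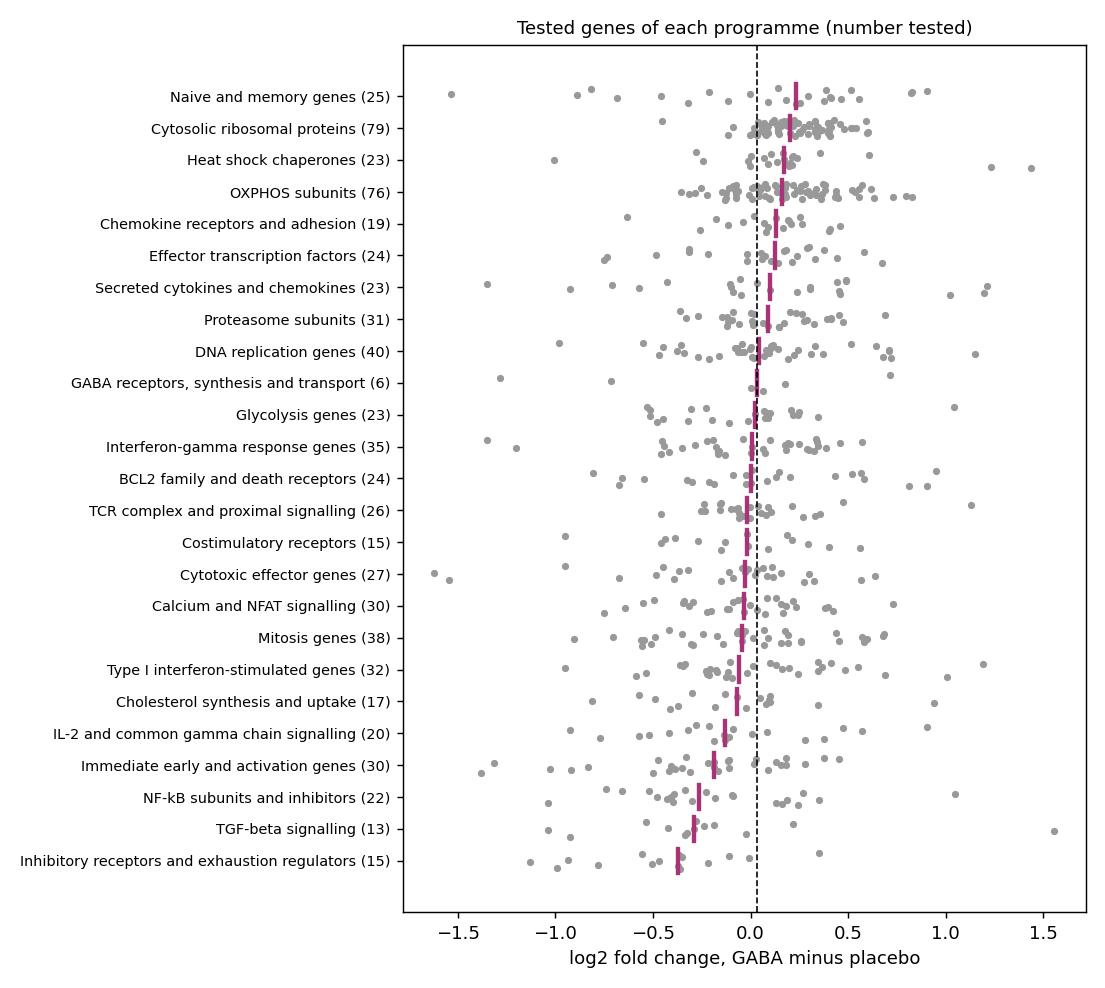
Log2 fold change with GABA against placebo (x axis) of each tested gene (grey points) in 25 programmes (y axis, number of tested genes in brackets), with the median of each programme in purple and that of all 6663 tested genes as a dashed line at 0.03. Inhibitory receptors lie lowest at a median of -0.37, and most ribosomal protein genes lie right of the dashed line.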

How the data were processed

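Per the study's methods, the authors mapped the reads with STAR to mm10 (UCSC refFlat). Per the labels, molecules carried barcodes. The deposited values are whole numbers and were taken as counts of distinct molecules, with no normalization found. Counts were divided by DESeq2 median-of-ratios size factors over the 18 CD8+ libraries, and genes with a mean above 1 in these libraries were tested. The study took the same minimum over all its samples, which may be another set. Macrophage libraries were scaled apart, over the 18 of them, so levels are not compared between cell types.

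Genes were tested in edgeR 4.0.16 by its quasi-likelihood F-test on TMM-scaled values (1 coefficient per group), with Benjamini-Hochberg adjustment over all tested genes and a threshold of 0.05. Library totals for TMM were those of the tested genes, which is edgeR's default. The design had not named the totals, and the counts under both choices had been seen when this was set, so both are given. DESeq2 1.42.0 was run as another tool, in R 4.3.3. Figures were drawn in matplotlib 3.10.9, and values were summarised with scipy 1.17.1, pandas 2.3.3 and numpy 2.4.6 under Python 3.11.15. Sums of marker lists and depth were compared by exact permutation tests.

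Genes were named by rule: any with an adjusted p under 0.05, the 10 higher and 10 lower with the smallest p among those with a mean of at least 5, a panel of T cell genes, and in each programme the most abundant member and the member with the smallest p in each direction where it was under 0.05. Of the genes so taken, 4 are not reported here. The comparison, lists and rules were chosen with earlier results of these data known. Apart from the TNF targets, programme and marker lists were written from general knowledge. The procedure was tested on simulated data. Coordinates are from RefSeq (GRCm38.p6), in which 24661 of 24781 names were found. Immunoglobulin constant genes were not analysed here.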

Additional observations from a re-analysis of the deposited data

Results flagged for a closer look

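Single samples lay apart from the other 5 of their group in 24 of the 194 groups of values looked at, by the ratio of the gap at the end to the whole range (above Dixon's 95% critical value). Chance gives about 1 in 20 groups, and the groups are not independent.

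In the placebo group, replicate 1 was the highest in macrophage (ratio 0.743), dendritic cell (0.695), neutrophil (0.706) and NK and γδ T cell markers (0.803) and the lowest in CD4+ and regulatory T cell markers (0.627). It was also the highest in *Entpd1* (0.697), *BC018473* (0.632), *Trps1* (0.717), *Prdm1* (0.883), *Samd9l* (0.729) and *Furin* (0.719), and the lowest in *Smad3* (0.663). Other placebo samples stood highest in *Tnf* (0.656), *Tigit* (1) and *Il2rg* (0.816) and lowest in *Mki67* (0.750).

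In the GABA group, replicate 1 was the highest in *Rpl14* (0.752), *Rpl35a* (0.816), *B2m* (0.669), *Tuba1b* (0.738) and *Hspa8* (0.667) and the lowest in *Zfp36l2* (0.849). Replicate 2 was the highest in *BC018473* (0.907), and *Tigit* was seen in 1 sample (1).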

How the results depend on the processing

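The count of 0 genes with an adjusted p under 0.05 was 11 without the filter on low means, 6 with log2 total molecules and 5 with the macrophage marker level as a covariate, and 0 to 1 when a replicate was left out. The cause was not tested. In edgeR *Gm6654*, *Ccdc36* and *Kif3a* had an adjusted p under 0.05 in each of these 3 fits. *Timm22* had one without the filter and with log2 total molecules, *Ifng* without the filter (4.03e-05) and with the macrophage marker level (0.032), and *Ccl5* without the filter (4.03e-05). The others, named after their values were seen, were *Dcn*, *Ccl24*, *Col3a1*, *Cyr61* and *Mmp2* without the filter, *Dcn* and *Tgfb3* with log2 total molecules and *Ccl24* with the macrophage marker level. The 247 genes at an unadjusted p under 0.05 became 133 with DESeq2's Wald test, 583 without the filter, and 68 with filterByExpr and 90 with a mean above 5, which test fewer genes. Totals over all genes, an alternative added after the data were seen, gave 246.

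Samples of the same number did not in general deviate together: the correlation of deviations was above 0.1 in 2 of 6 pairs (-0.07 to 0.28), and 1 of 6 placebo samples matched its own number best. That sample was replicate 1, whose pair had the correlation of 0.28. With the replicate number as a block 2 genes had an adjusted p under 0.05, *Gm6654* and *Ccl5*. With that block the log2 fold change was 0.0385 for *Tuba1b*.

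Genes with log2 fold changes near 0 changed sign. The median over all genes, 0.03, was -0.03 with log2 total molecules as a covariate, -0.02 with DESeq2's size factors or Wald test, -0.01 with filterByExpr, 0.01 with a mean above 5, and 0.00 with library totals over all genes, so that part of the moves in these fits is shared by all genes. It stayed at 0.03 with the macrophage marker level as a covariate. With log2 total molecules as a covariate the log2 fold change was 0.0851 for *Fasl*, 0.00727 for *Ccl4*, 0.0453 for *Cd8a*, 0.0193 for *Cd3e*, 0.11 for *Ly6c2*, -0.11 for *Pcna* and -0.0477 for *Atp5b*. With filterByExpr the log2 fold change was -0.0137 for *Ccr7*, -0.0857 for *Cd69*, -0.0598 for *Pcna*, -0.0465 for *Atp5b* and -0.0151 for *Psmb1*. With DESeq2's size factors the log2 fold change was -0.0596 for *Cd69*, -0.037 for *Pcna* and -0.0235 for *Atp5b*. With DESeq2's Wald test the log2 fold change was -0.062 for *Cd69*, -0.0359 for *Pcna* and -0.0241 for *Atp5b*. With a mean above 5 the log2 fold change was -0.0561 for *Cd69*, -0.0384 for *Pcna* and -0.0265 for *Atp5b*. With the macrophage marker level as a covariate the log2 fold change was -0.0900 for *Cd69*, 0.0303 for *Gabarap*, -0.00111 for *Pcna*, 0.019 for *Tuba1b*, -0.0247 for *Atp5b*, -0.0483 for *Psmb1* and 0.00129 for *Hspa8*. With library totals over all genes the log2 fold change was -0.0269 for *Cd69* and -0.0132 for *Pcna*. With no filter the log2 fold change was 0.00626 for *Gabarap* and 0.00272 for *Hspa8*. With the 12 libraries fitted alone the log2 fold change was 0.00467 for *Gabarap* and 0.0057 for *Hspa8*.

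Leaving out 1 replicate gave log2 fold changes of -0.37 to 0.89 for *Tnf*, -0.43 to 0.87 for *Il2*, -0.27 to 0.0896 for *Fasl*, -0.47 to 0.18 for *Ccl4*, -0.15 to 0.29 for *Eomes*, -0.0719 to 0.24 for *Ccr7*, -0.14 to 0.21 for *Cd69*, -0.24 to 0.11 for *Cd8a*, -0.21 to 0.11 for *Cd3e*, -0.23 to 0.10 for *Id2*, -0.28 to 0.12 for *Ly6c2*, -0.27 to 0.20 for *Il2rg*, -0.12 to 0.0841 for *Gabarap*, -0.15 to 0.13 for *Pcna*, -0.17 to 0.16 for *Tuba1b*, -0.0759 to 0.10 for *Atp5b*, -0.052 to 0.16 for *Psmb1*, -0.12 to 0.0828 for *Hspa8*, -0.38 to 0.0152 for *Scd2* and -0.46 to 0.00358 for *Furin*. The summed marker level, as the difference of means in molecules, ran from -95.4 to 49.5 for macrophage markers, -2.2 to 1.29 for neutrophil markers, -0.0738 to 0.39 for B cell markers, -14.8 to -8.69 for CD4+ and regulatory T cell markers and -1.63 to 4.95 for NK and γδ T cell markers. Depth kept its direction.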
